A study of Mus musculus with 10 samples.

Results

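Pou5f1, Sox2 and Nanog, the genes of the core pluripotency transcription factors, were described by the H3K4me3 and ATAC-seq peaks in and around them in mouse embryonic stem cells. The 3 genes were taken by name from the GENCODE M21 annotation, which lists 21938 protein-coding genes on the autosomes, X and Y of mm10. All samples came from F123, a hybrid embryonic stem cell line from an F1 cross of Mus musculus castaneus with S129/SvJae, with no treatment and no genotype contrast. Culture used knockout serum replacement and LIF. CF1 feeder fibroblasts, irradiated, supported the line, and the last passage before collection was feeder-free. ATAC-seq was made from 100000 cells in 2 biological replicates, and H3K4me3 ChIP-seq from 2000000 cells in 2 biological replicates with 2 input samples, while 4 PLAC-seq samples of the series were not analysed here. Each assay gave a single peak list that stood for both replicates, 33487 H3K4me3 peaks and 179109 ATAC-seq peaks. No value per replicate, no read count and no depth was in these lists, so there was no replicate error, and the positions, widths and ranks below are descriptions without a test.

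Oct4, the POU-domain protein encoded by Pou5f1, and Sox2, a protein with an HMG box, bind DNA side by side at a composite sequence and keep each other's genes and many others active in the early embryo and in embryonic stem cells. Nanog is a homeodomain protein that joins them at many of the same enhancers and stabilises self-renewal when its level is high. H3K4me3 is a histone mark deposited around active or poised transcription start sites, and ATAC-seq marks open chromatin, at promoters and at enhancers alike. The genes are controlled by enhancers known from reporter and deletion studies: a proximal and a distal enhancer before Pou5f1, SRR1 and SRR2 on either side of Sox2 together with the Sox2 control region far downstream, and enhancers of Nanog at about -5, -45 and +60 kb. Distances are from the gene start, negative values upstream, and each enhancer was taken as an approximate window at its known distance or as the region given for an earlier 3C or 4C interaction.

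The promoters came first, because an exact OCT4-SOX2 composite letter string set the Nanog promoter apart. The sequences were taken from RefSeq (GRCm38.p6, the assembly named mm10), 250 bases before to 50 after a RefSeq transcript start, and belong to the C57BL/6J reference rather than to the alleles of F123. Capitals mark the GGGCGG letters of a GC box, or CCGCCC where it is on the other strand, in Pou5f1 (chr17:35505782-35506081) and Sox2 (chr3:34649745-34650044). In Nanog (chr6:122707239-122707538) they mark the composite string, which is on the minus strand, while each sequence is printed on the plus strand.
Pou5f1 promoter: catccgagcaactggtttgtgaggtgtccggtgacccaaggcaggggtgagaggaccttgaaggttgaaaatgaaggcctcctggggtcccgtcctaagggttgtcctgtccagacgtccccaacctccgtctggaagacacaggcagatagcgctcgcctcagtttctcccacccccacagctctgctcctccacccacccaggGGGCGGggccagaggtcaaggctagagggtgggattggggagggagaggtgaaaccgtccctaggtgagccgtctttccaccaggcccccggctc
Sox2 promoter: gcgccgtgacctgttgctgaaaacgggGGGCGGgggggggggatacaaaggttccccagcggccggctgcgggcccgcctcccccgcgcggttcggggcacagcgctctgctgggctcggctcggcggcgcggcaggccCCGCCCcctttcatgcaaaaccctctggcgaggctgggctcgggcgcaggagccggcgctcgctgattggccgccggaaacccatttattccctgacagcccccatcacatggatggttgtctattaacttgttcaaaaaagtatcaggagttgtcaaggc
Nanog promoter: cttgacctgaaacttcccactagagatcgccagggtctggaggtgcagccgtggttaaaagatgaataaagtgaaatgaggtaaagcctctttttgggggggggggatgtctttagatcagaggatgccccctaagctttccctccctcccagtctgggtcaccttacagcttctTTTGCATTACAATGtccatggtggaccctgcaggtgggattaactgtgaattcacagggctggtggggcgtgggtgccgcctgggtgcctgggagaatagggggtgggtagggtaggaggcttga
The composite was searched on both strands as CATTGT, 1 base of any kind and ATGCAAA, so that 13 letters were compared. The Nanog promoter held it with 0 mismatches on the minus strand, from -75 bp, inside the ATAC-seq peak of the start. Among 32851 RefSeq promoters of the same length, 2 held the exact string (0.00609%), and both were overlapping entries of Nanog. It was thus the single gene of 27025 with the exact string in a promoter. With at most 1 mismatch the string was in 24 promoters of 21 genes, and with at most 2 in 306 promoters of 294 genes. The GC box letters were common, in 35.7% of promoters, with 1 match in Pou5f1 and 2 in Sox2. CpG dinucleotides numbered 27 in the Sox2 promoter, 11 in Pou5f1 and 4 in Nanog, against a median of 7, so that 84.5%, 58.6% and 31.4% of promoters had fewer. The printed Sox2 sequence ended -361 bp from the GENCODE start, since RefSeq placed its start further upstream.

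The enhancer peaks below were printed because each lies in an enhancer window away from the promoter and holds letters of a factor known at that element. Capitals mark the best composite match and the KLF string GGGTGTGG in the Pou5f1 distal enhancer (chr17:35503907-35504206, 300 of the 500 bp of its peak). They mark the composite and the STAT string TTCCNGGAA in SRR2 of Sox2 (chr3:34653934-34654184, the whole ATAC-seq peak). In the Sox2 control region (chr3:34757814-34758113) they mark the ESRRB string TCAAGGTCA on the minus strand, and in the -45 kb enhancer of Nanog (chr6:122660597-122660790) the octamer ATGCAAAT. The Nanog stretch is the narrowest of 3 ATAC-seq peaks in that window, 194 bp from -46.89 kb near its edge. The widest, 726 bp from -44.78 kb, was not printed. Its central 300 bases held no exact octamer and a composite match with 3 mismatches.
Pou5f1 distal enhancer: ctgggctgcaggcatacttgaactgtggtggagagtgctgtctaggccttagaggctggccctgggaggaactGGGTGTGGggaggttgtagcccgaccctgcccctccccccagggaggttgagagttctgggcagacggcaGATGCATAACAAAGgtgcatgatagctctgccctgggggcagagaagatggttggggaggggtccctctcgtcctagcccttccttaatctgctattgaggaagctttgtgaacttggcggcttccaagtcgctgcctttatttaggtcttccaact
Sox2 SRR2: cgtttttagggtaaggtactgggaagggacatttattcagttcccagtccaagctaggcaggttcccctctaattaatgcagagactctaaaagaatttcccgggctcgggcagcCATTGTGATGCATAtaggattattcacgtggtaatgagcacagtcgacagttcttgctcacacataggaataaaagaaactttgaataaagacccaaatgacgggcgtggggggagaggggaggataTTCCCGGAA
Sox2 control region: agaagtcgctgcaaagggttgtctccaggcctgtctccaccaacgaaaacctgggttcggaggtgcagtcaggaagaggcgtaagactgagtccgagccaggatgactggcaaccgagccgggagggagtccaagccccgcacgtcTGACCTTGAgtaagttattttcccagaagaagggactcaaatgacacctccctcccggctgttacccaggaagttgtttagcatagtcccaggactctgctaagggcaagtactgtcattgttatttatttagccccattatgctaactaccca
Nanog -45 kb enhancer: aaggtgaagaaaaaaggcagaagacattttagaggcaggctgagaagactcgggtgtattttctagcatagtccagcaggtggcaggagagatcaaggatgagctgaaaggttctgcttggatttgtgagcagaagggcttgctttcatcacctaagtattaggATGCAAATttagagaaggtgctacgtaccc
The SRR2 match differed from the composite by 1 letter, and only 0.199% of the 178722 ATAC-seq peaks on these chromosomes had a match that close in the 300 bases around their centre. The match in the Pou5f1 distal enhancer had 3 mismatches, a closeness that 11.1% of all ATAC-seq windows reached, so it did not set this element apart. The ESRRB string was in 0.852%, the octamer in 3.55%, the KLF string in 5.51% and the STAT string in 1.02% of windows. The printed stretches were chosen because they hold such letters, so the shares given here are no test of them. In the Sox2 control region, the printed stretch is from a 475-bp ATAC-seq peak among the 6 of that window. The widest of the 6, of 605 bp, held no exact ESRRB string in its central 300 bases. These matches are letters in a window and not measured binding.

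H3K4me3 covered the start of all 3 genes in a peak over 4000 bp wide, where 65.2% of protein-coding genes had any H3K4me3 peak within 1 kb of the start and 5.07% had one of at least 4000 bp. Sox2 had the widest of the 3 peaks, Pou5f1 the next and Nanog the narrowest, and the fold enrichment, the ChIP signal over background given by the peak caller, followed the same order. The Sox2 peak was 8186 bp wide, ran from -2.49 to +5.70 kb, and ranked 29 by width in the whole list, at a fold enrichment of 42.9 (−log10 q 518). It held the single exon of the gene (mm10 chr3:34650405-34652461) and SRR2, and its summit lay at -81 bp. The 5078-bp peak of Pou5f1 (chr17:35506018-35510772) ran from -1.04 to +4.04 kb at a fold of 35.1 (−log10 q 385), and ranked 391. It covered exons 1 to 3 in full and 46.5% of exon 4, while exon 5 lay outside every H3K4me3 peak. The 4301-bp peak of Nanog (chr6:122707489-122714633) ran from -1.19 to +3.11 kb at a fold of 14.9 (−log10 q 207), and ranked 821. It ended in the first intron, so that exon 1 was covered and exons 2, 3 and 4 were not.

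Compared with the 14295 protein-coding genes that had an H3K4me3 peak at the start, the 3 genes were alike in width and unlike in fold. Their peaks were wider than those of 99.8% (Sox2), 97.3% (Pou5f1) and 94.2% (Nanog) of these genes, whose median width was 2165 bp. Their fold was higher than that of 80.9%, 62.4% and 15.9% of the genes, around a median of 30.6. Nanog was therefore a wide and shallow peak: of the 824 genes with a peak at least as wide, 44 (5.34%) had a lower fold, and the median fold of the 824 was 37.7. The corresponding shares were 41.6% for Pou5f1 and 69.7% for Sox2. The summit of Nanog lay at +963 bp, further into the gene than that of Pou5f1 at +209 bp. The share of the peak downstream of the start was 79.5% for Pou5f1, 72.2% for Nanog and 69.6% for Sox2, around a median of 67.7% and above that of 74.7%, 60.3% and 54.1% of genes.

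**Figure D1:**
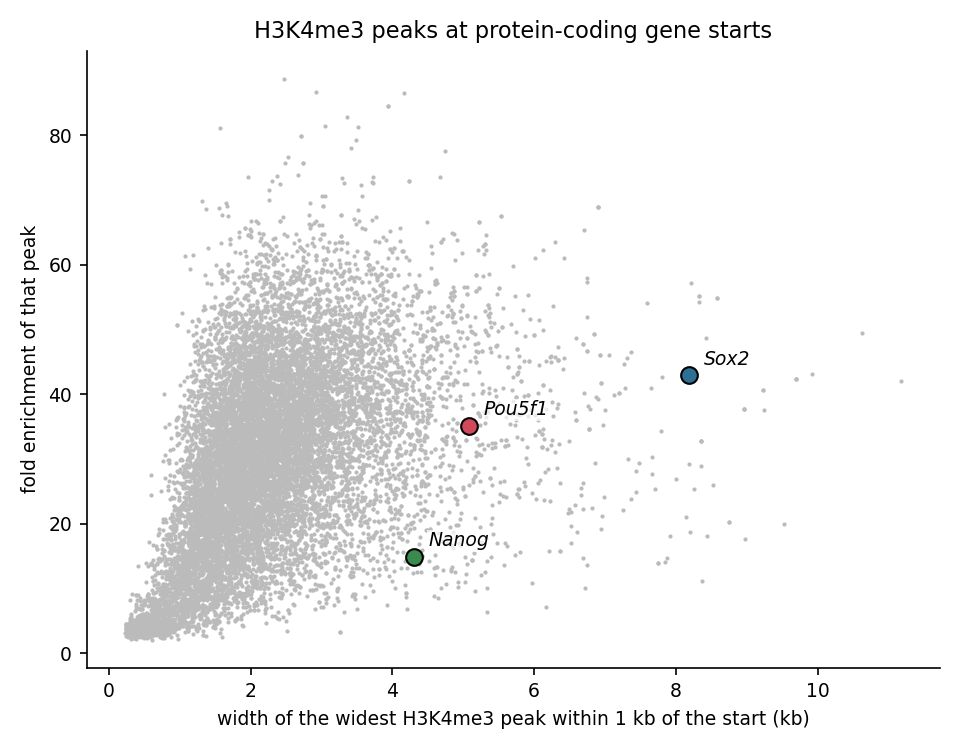
Width in kb (x axis) against fold enrichment (y axis) of the widest H3K4me3 peak within 1 kb of the start, with a grey point for each of 14295 protein-coding genes and a coloured point for each of the 3 genes. Sox2 lies far to the right at 8186 bp, and Nanog at a fold of 14.9 along the lower edge of the peaks of its width. Pou5f1 lies at a fold of 35.1, a little below the median of 37.6 of peaks at least as wide.

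Around the start, Sox2 had further H3K4me3 beside the start peak. Within 20 kb on either side, 19507 bp lay in H3K4me3 peaks at Sox2, which ranked 29 of 21938 genes, compared with 11075 bp at Pou5f1, 6064 bp at Nanog and a median of 2434.5 bp. A peak of 1462 bp with a fold of 6.83 followed the start peak of Sox2 directly, from +5.75 to +7.21 kb, and a further peak of 5235 bp with a fold of 12.2 ran from +10.68 to +15.92 kb and ranked 341 by width. Upstream, 5 peaks from -10.95 to -6.78 kb, 241 to 1686 bp wide, lay in an intron of Sox2ot, the noncoding transcript in whose interior Sox2 lies. No other protein-coding start lay within 150 kb, but noncoding ones did: the 5235-bp peak covered the start of Gm42693, the 1462-bp peak lay 120 bp from a noncoding transcript start, and 3 of the 5 upstream peaks lay within 1 kb of such a start. These bases were not assigned to a gene by the data. Pou5f1 had a narrow peak directly before its start peak, 848 bp with a fold of 5.50 from -1.99 to -1.14 kb, and another of 582 bp with a fold of 3.42 from -3.60 to -3.01 kb.

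**Figure D2:**
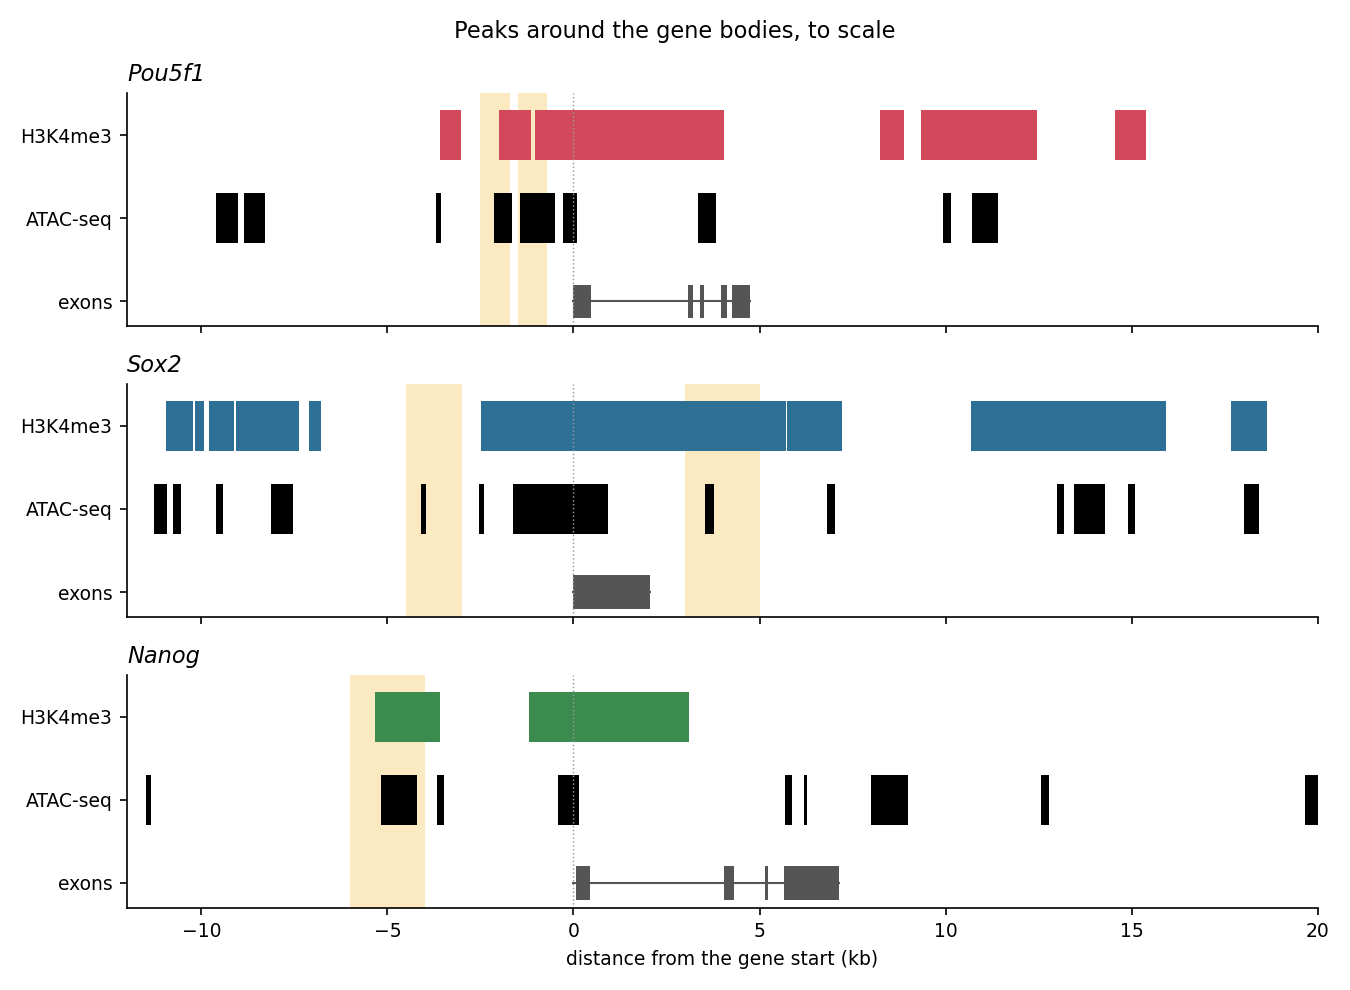
H3K4me3 peaks (coloured boxes), ATAC-seq peaks (black boxes) and exons of the principal transcript (grey boxes) of the 3 genes, drawn to scale against the distance from the gene start in kb (x axis), with yellow bands for the enhancer windows. The H3K4me3 box of Sox2 reaches from -2.49 to +5.70 kb over the whole gene, whereas that of Nanog ends at +3.11 kb before exon 2.

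Open chromatin at the starts differed more in extent than in number. All 3 genes had an ATAC-seq peak over the start, as 71% of protein-coding genes had within 1 kb. That of Sox2 was 2567 bp wide, from -1.63 to +0.94 kb, and was the 15th widest of all 179109 ATAC-seq peaks, whose median width was 261 bp. The start peak of Nanog was 562 bp, from -0.41 to +0.15 kb, and that of Pou5f1 was 376 bp, from -0.29 to +0.08 kb. Within 5 kb of the start, Pou5f1 had 5 ATAC-seq peaks, Sox2 4 and Nanog 3, more than 96.6%, 91.0% and 78.1% of protein-coding genes. In the gene bodies, Pou5f1 had a further peak of 507 bp from +3.33 to +3.84 kb, inside the H3K4me3 start peak, and Nanog had peaks of 179 and 80 bp in its last exon, outside any H3K4me3 peak. The narrower of these was close to the smallest width in the list, 73 bp, and processed pseudogenes of Nanog are annotated elsewhere in the genome, whose part in reads over its exons was not tested. The remaining ATAC-seq peaks within 10 kb of a start lay outside the bodies of the 3 genes. At Pou5f1 they were 601 and 558 bp wide from -9.61 and -8.84 kb, with no H3K4me3, 127 bp from -3.69 kb and 212 bp from +9.92 kb. At Sox2 they were 189, 574, 129 and 223 bp wide from -9.60, -8.12, -2.53 and +6.80 kb, each touching an H3K4me3 peak. At Nanog a peak of 991 bp from +7.99 to +8.98 kb, just past the gene and free of H3K4me3, was the widest within 10 kb, and another of 189 bp lay from -3.68 kb.

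All 11 enhancer windows held an ATAC-seq peak, and 8 of 11 held an H3K4me3 peak. With the midpoint of the peak required inside the window, H3K4me3 remained in 5 of 11, without both Pou5f1 enhancers and SRR2. Each window was compared with the same distances at all 21938 protein-coding genes. The distal enhancer of Pou5f1, the element used in naive embryonic stem cells, held an ATAC-seq peak of 500 bp from -2.14 to -1.64 kb, where 9.53% of genes had an ATAC-seq peak at those distances, and touched the 848-bp H3K4me3 peak, where 9.04% of genes had one. The proximal enhancer, used later in the epiblast, held a wider peak of 949 bp from -1.44 to -0.49 kb, where 16.7% of genes had one. It also met 2 H3K4me3 peaks, the start peak among them, as 34.6% of genes had any at that distance. Both Pou5f1 windows thus held open chromatin in these cells. Both ATAC-seq peaks ran past the window edge nearer the start, at -0.7 kb for the proximal and -1.7 kb for the distal window. The proximal peak reached to 491 bp from the start, so its length is not that of the enhancer alone. The region of the earlier 3C work further upstream held 3 ATAC-seq peaks of 265, 354 and 324 bp from -17.35 to -15.31 kb and no H3K4me3 peak, where 34.5% and 13.4% of genes had ATAC-seq and H3K4me3 peaks.

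The elements next to Sox2 were narrow in ATAC-seq compared with its start. SRR1 held a peak of 147 bp from -4.10 to -3.95 kb and no H3K4me3 peak, at distances where 14.1% and 7.92% of genes had ATAC-seq and H3K4me3 peaks. SRR2 held the 251-bp peak printed above, from +3.53 to +3.78 kb, where 16.1% of genes had an ATAC-seq peak. It lay within the H3K4me3 start peak, where 12.3% of genes had H3K4me3. The Sox2 control region, the downstream element needed for Sox2 transcription in embryonic stem cells, held 6 ATAC-seq peaks from +106.18 to +115.00 kb, the widest 605 bp, in a long window where 63.7% of genes had at least 1. It also held 3 H3K4me3 peaks, where 26.5% of genes had any, with no annotated transcript start within 1 kb of them. The largest was 1672 bp wide with a fold of 10.9 from +106.36 to +108.03 kb, and the others were 453 and 637 bp with folds of 3.63 and 3.41. The first of them stood above the median of H3K4me3 peaks away from transcript starts, which were 611 bp wide with a fold of 4.17. The stretch printed above with the ESRRB string lay wholly inside this H3K4me3 peak and inside an ATAC-seq peak of 475 bp.

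Near Nanog, open regions wider than that of the start lay outside the gene. The -5 kb enhancer held an ATAC-seq peak of 979 bp from -5.17 to -4.20 kb, where 20.9% of genes had one, and an H3K4me3 peak of 1763 bp with a fold of 7.12, where 9.04% had one. This ATAC-seq peak was wider than the 562-bp peak of the start. The -45 kb enhancer held 3 ATAC-seq peaks of 194, 726 and 232 bp, where 35.4% of genes had any, and no H3K4me3 peak, where 13.9% had one. The +60 kb enhancer, which lies in an intron of the longest annotated form of Slc2a3, held 4 ATAC-seq peaks, the widest 1078 bp from +56.96 to +58.03 kb, where 45.1% of genes had any, and 2 H3K4me3 peaks of 1772 and 619 bp with folds of 12.7 and 4.26, where 17.5% had one. Of the earlier 3C regions upstream, the near one, a long window that includes the -45 kb enhancer, held 7 ATAC-seq peaks, where 77.9% of genes had any and 37.5% had H3K4me3. Its widest, 1200 bp from -38.05 to -36.85 kb, coincided with an H3K4me3 peak of 917 bp whose fold of 13.7 was close to the 14.9 of the Nanog start, and the nearest annotated gene start was 25493 bp away. The far 3C region fell on the start of Gdf3, with 3 ATAC-seq peaks and an H3K4me3 peak of 3626 bp, where 39.4% and 14.9% of genes had any.

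**Figure D3:**
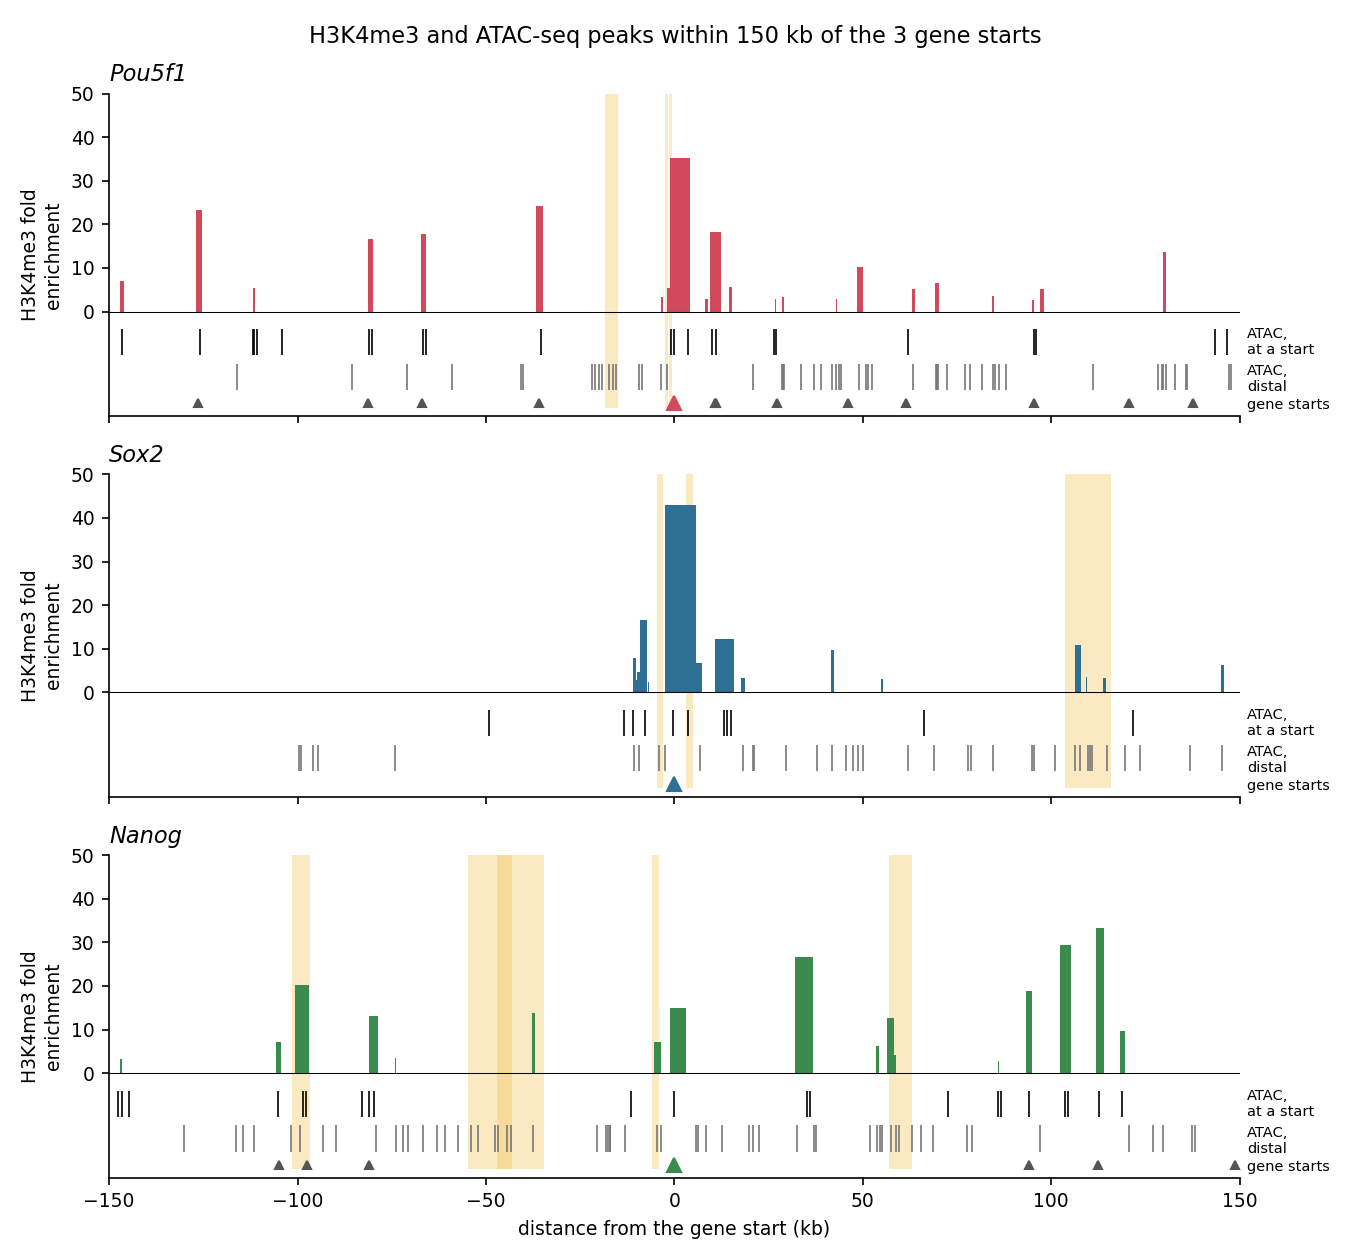
H3K4me3 peaks (coloured bars, height is fold enrichment, width to scale) and ATAC-seq peaks (ticks, black where a transcript start lies within 1 kb and grey where none does) against the distance from the gene start in kb (x axis), with triangles for protein-coding starts and yellow bands for the enhancer windows. Sox2 is the single protein-coding start in its window and has the tallest bar of the 3 genes, while at Nanog the bars of its neighbours, up to a fold of 33.3, exceed its own 14.9.

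Within 150 kb on either side, Nanog had 80 ATAC-seq peaks, Pou5f1 77 and Sox2 49, against a median of 32 over protein-coding genes. These counts exceeded those of 98.9%, 98.4% and 79.1% of protein-coding genes. The surroundings differed, with 12 other protein-coding starts in the window of Pou5f1, 6 in that of Nanog and 0 in that of Sox2. Among genes with a number of neighbouring starts within 2 of their own, the share below was 99.7% for Nanog, 97.2% for Pou5f1 and 95.1% for Sox2. Peaks over 1 kb from any transcript start, called distal here, numbered 59 of 80 at Nanog, 54 of 77 at Pou5f1 and 38 of 49 at Sox2, where 80% of all ATAC-seq peaks were distal. With 59, Nanog ranked 52 of 21938 genes for distal ATAC-seq peaks. Windows of neighbouring genes overlap, and some neighbours had higher counts. Dppa3 near Nanog had 83 ATAC-seq peaks, 62 of them distal. Near Pou5f1, 2300002M23Rik had 87, of which 59 were distal. The high counts thus describe the surroundings and are not particular to Nanog or Pou5f1. The other neighbours were not compared here. Most of the Nanog peaks were narrow: 31 of 80 belonged to the wider 50% of the list, against 46 of 77 at Pou5f1 and 21 of 49 at Sox2. By those wide peaks alone Nanog exceeded 86.2% of genes.

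**Figure D4:**
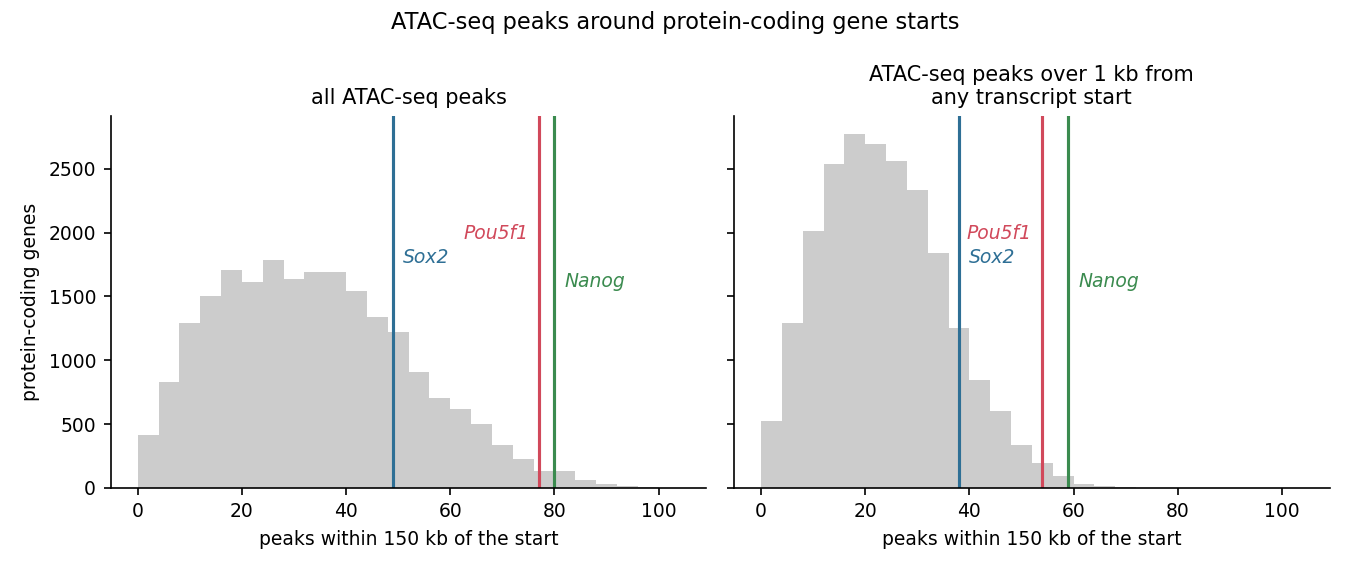
Number of protein-coding genes (y axis) by the count of ATAC-seq peaks within 150 kb of the start (x axis), for all peaks on the left and for peaks over 1 kb from any transcript start on the right. Coloured lines mark the 3 genes. Nanog at 80 and 59 and Pou5f1 at 77 and 54 lie in the upper tails. Sox2 at 49 and 38 lies nearer to the bulk. Neighbours with overlapping windows can have higher counts, such as Dppa3 near Nanog with 83 and 62.

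Outside the enhancer windows, the gene bodies and 10 kb around the starts, the 3 widest ATAC-seq peaks of each gene were as follows. At Pou5f1 they were 1629 bp at the start of H2-Q4, 1585 bp at H2-Q10 and 981 bp at the pseudogene H2-Q3, and at Nanog 1442 bp at the start of Foxj2, 1179 bp at Slc2a3 and 918 bp at Gm5112, all 6 at annotated starts. Peaks already described at Nanog, of 1200, 1078, 991 and 979 bp, were wider than the last of these and had no transcript start within 1 kb. At Sox2, peaks of 1035 bp from +77.48 kb and 901 bp from +136.38 kb lay between genes with no transcript start within 1 kb, and the third, 851 bp from +13.44 kb, lay on the start of the noncoding Gm42693 in the 5235-bp H3K4me3 peak.

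H3K4me3 peaks within 150 kb numbered 22 at Pou5f1, 17 at Nanog and 15 at Sox2, against a median of 7. In terms of genes with a like number of neighbouring starts, the 15 peaks of Sox2 exceeded 98.3%, the 17 of Nanog 91.2% and the 22 of Pou5f1 79.4%. The shares over 1 kb from any transcript start were 9 of 15 at Sox2, 11 of 22 at Pou5f1 and 6 of 17 at Nanog, against 43.1% in the whole list. An ATAC-seq peak overlapped 17 of 17 H3K4me3 peaks at Nanog, 19 of 22 at Pou5f1 and 11 of 15 at Sox2, where 87.1% of all H3K4me3 peaks had one. Conversely, 30 of 77, 17 of 49 and 25 of 80 ATAC-seq peaks of Pou5f1, Sox2 and Nanog overlapped an H3K4me3 peak by at least 1 bp, against 21.1% in the list. For the distal ATAC-seq peaks these counts were 13 of 54, 10 of 38 and 10 of 59, with 10.5% in the list.

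Most neighbours of Pou5f1 and Nanog carried H3K4me3 of their own, of other widths. Of the 12 around Pou5f1, 8 had an H3K4me3 peak at the start, close to the 65.2% of all protein-coding genes. They were the class Ib histocompatibility genes H2-Q4, H2-Q6, H2-Q7 and H2-Q10 (1374 to 1693 bp), Tcf19 and Cchcr1 in a shared peak of 3104 bp, and Psors1c2 and Sfta2 with folds of only 2.93 and 2.55. Cdsn, 2300002M23Rik, Gm9573 and Mucl3 had none, and none of the 12 reached the 5078 bp of Pou5f1. The H2-Q genes are related in sequence to differing degrees. How reads that map to several of them were treated in the ChIP-seq is not given in the sources used here. Around Nanog, the pluripotency-associated Gdf3, a TGF-beta family ligand, and Dppa3, a maternal factor that protects DNA methylation, had peaks of 3626 and 2508 bp with folds of 20.3 and 13.1. Apobec1, Slc2a3, the gene of a glucose transporter, and Foxj2 also had a peak, and C3ar1 had none. The widest H3K4me3 peak of the Nanog window was not that of Nanog but one of 4667 bp with a fold of 26.6 from +32.01 to +36.67 kb, over the principal transcript start of Slc2a3, whose annotated gene start lies further away.

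The genes most alike to each member were sought over 5 measures, the width and fold of the start peak and the counts of H3K4me3 and ATAC-seq peaks within 150 kb and of ATAC-seq peaks within 5 kb, as the mean difference in percentile points over 14295 genes. Pou5f1 was most like Trp53 and Wrap53, which share a start peak (2.62 points), and Tmem253 (2.65 points). Sox2 was most like Ier5l (1.26 points, a start peak of 6706 bp and 49 ATAC-seq peaks), Bbc3 (2.79) and Usp48 (3.10). Nanog was most like Nab2 (3.39), Thoc6 (3.84) and Hcfc1r1 (3.85), the last pair with a shared start peak. None of the 3 genes was among the 3 nearest to another. The distances were 11.6 points between Pou5f1 and Sox2, 15.2 between Pou5f1 and Nanog and 21.5 between Sox2 and Nanog. The genes above were picked as the nearest, so larger distances follow from that choice. The share of all genes closer than these distances was not computed.

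Other genes of the network had wide start peaks too. Of 16 further pluripotency genes, 13 had an H3K4me3 peak at the gene start and 16 at some annotated transcript start, where 68.7% of protein-coding genes had one. A start peak of at least 4000 bp was found at 8 of the 16, against 5.07% of all protein-coding genes. The median of the 13 peaks was 4558 bp. Tbx3 and Sall4 had 7846 and 7001 bp, which lay between Pou5f1 and Sox2, whereas the nuclear receptor gene Nr0b1 had 1686 bp. Tbx3 and Prdm14 combined this width with a fold below the 14.9 of Nanog. Among 10 known targets of Oct4 and Sox2, 9 had a peak at the gene start and 10 at some transcript start, with a median of 4511 bp. Zfp42 is in both lists, so the medians are not independent. Lefty1, a Nodal antagonist, had 4511 bp with a fold of 14.3, and Fbxo15 had 5808 bp with a fold of 15.6. Fgf4, the textbook target of the composite site, had no peak at its gene-level start but had one at its principal transcript start, 14019 bp further on.

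Paralogs with the same DNA-binding domains also had H3K4me3 at the start, although many act in other lineages. Of 14 other POU genes, 11 had a start peak (65.2% of all protein-coding genes), with a median of 3502 bp, and Pou3f3 had the widest at 6693 bp, wider than Pou5f1. Of 19 other SOX genes, 18 had a start peak, with a median of 3244.5 bp and the widest at Sox11 with 6360 bp, all narrower than the 8186 bp of Sox2. The closest relatives of Sox2, Sox1 and Sox3, had 4354 and 5386 bp with folds of 21.5 and 19.9, and the neural genes Pou3f2 and Pou3f3 had folds of 15.1 and 14.7, near that of Nanog. Sry, the testis-determining gene, had no peak. A start peak of at least 4000 bp was found at 4 of the POU and 7 of the SOX paralogs, against 5.07% of all protein-coding genes.

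**Figure D5:**
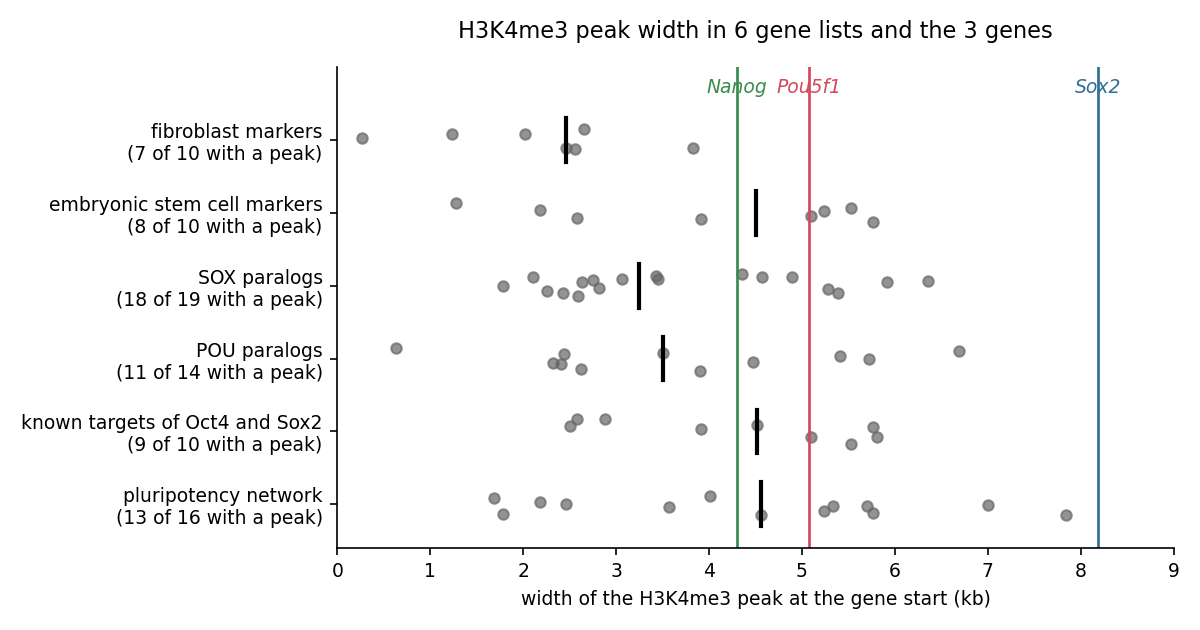
Width in kb of the H3K4me3 peak at the gene start (x axis) for the genes of 6 lists (rows), with a grey point for each gene that had a peak, a black bar for the median and coloured lines for the 3 genes. No SOX or POU paralog reaches the line of Sox2 at 8186 bp, and no fibroblast marker reaches that of Nanog at 4301 bp.

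The label of the cells was checked on marker genes. Of 10 embryonic stem cell markers, 8 had an H3K4me3 peak at the gene start and 10 at some transcript start, with a median width of 4503.5 bp. Several of them, such as Zfp42, Klf4 and Utf1, are also in the lists of network genes or targets above. Of 10 fibroblast markers, which feeder cells would carry, 7 had a start peak, with widths of 271 to 3826 bp, a median of 2464 bp and folds up to 20.4, and Col3a1, Postn and Lum had none. With 65.2% of protein-coding genes carrying a start peak, the 8 and 7 of 10 did not separate the lists by presence. Start peaks at such genes also occur without expression, and the part of remaining feeder cells in any value here was not tested.

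Over all 206 ATAC-seq peaks of the 3 windows, the same letters were counted in the 300 bases around each centre. Composite matches of at most 2 mismatches were in 6 of 206 windows of 300 bases, 4 of them at Nanog and 1 each at Pou5f1 and Sox2, against 2.08% of all ATAC-seq windows. Besides the Nanog promoter and SRR2 they lay at +33.61 kb of Pou5f1 and at -82.81, -60.74 and +68.73 kb of Nanog, the last pair outside the edges of their narrow ATAC-seq peaks. The exact composite was in 14 of 178722 ATAC-seq windows (0.00783%), of which the Nanog start was 1. The SOX string CATTGT, which is part of the composite, was in 24 of 206 windows (13.5% in the list), and 12 of these were among the 49 of Sox2. The KLF string was in 16 (5.51% in the list), the octamer in 3 (3.55%), the ESRRB string in 5 (0.852%), the STAT string in 2 (1.02%), the CTCF string (CC, 3 bases of any kind, AGGGGGC) in 5 (2.46% in the list) and the GC box in 38 (19.3%). An exact ESRRB string lay at +63.06 kb of Nanog, in the 626-bp ATAC-seq peak that crosses the edge of the +60 kb window at +63 kb.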

How the data were processed

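Chromatin of F123 cells was profiled by ATAC-seq (n = 2) and H3K4me3 ChIP-seq (n = 2, with input). Per the paper's methods, the authors aligned ATAC-seq reads to mm10 with Bowtie 1.1.2, removed duplicate and mitochondrial reads with SAMtools, moved read ends by 4 bp for the Tn5 insertion, called peaks with MACS2 2.1.1.20160309 and, with bedtools 2.27.1, kept pooled peaks present in both replicates. In the paper's settings, the threshold of the ATAC-seq call was on the p-value and not on the q-value. Every ATAC-seq count here rests on that threshold. The deposited ATAC-seq file holds positions only. The H3K4me3 list came from the ENCODE histone ChIP-seq pipeline at default settings; its aligner and threshold are not given in the sources used here. It holds positions and, as deposited by the authors, fold enrichment as a ratio, −log10 q-values, −log10 p-values (not used) and a display score (not used). A wide region can be split into neighbouring peaks by the caller, and width follows depth and threshold.

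Peaks were joined to GENCODE M21 (mm10) by overlap of at least 1 bp. The peak at a start was the widest within 1 kb, counts covered 150 kb on either side, and percentiles were over protein-coding genes on the autosomes, X and Y. A distal peak had no transcript start within 1 kb. Of the 11 enhancer windows, 7 were set from approximate known distances and 4 were regions of a supplementary list of earlier interactions. That list calls its coordinates approximate and names no genome build, which was taken as mm10. The peaks inside the windows come from the deposited files. Genes were named if they were members, protein-coding starts within 150 kb, among the 3 most alike, or examples of a list. Peaks were named if they were H3K4me3 peaks within 150 kb, ATAC-seq peaks at the gene, within 10 kb or in an enhancer window, or the 3 widest elsewhere. Motif letters were searched in 300-base windows centred on ATAC-seq peaks and in RefSeq promoters (GRCm38.p6). Python 3.11.15, numpy 2.4.6, pandas 2.3.3 and bedtools 2.31.1 were used; the counts equalled those of bedtools in 21938 of 21938 windows, and the interval and motif steps were tested on simulated data. Read depth is unknown, so no interval for a peak can be given. Samples were grouped by their titles. The members, gene lists and motifs were chosen with earlier results of these data known. Alternatives covered peak thresholds, joining, gene starts, window sizes and overlap rules.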

Additional observations from a re-analysis of the deposited data

How the results depend on the processing

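No paired analysis was possible because the lists merge both replicates and hold no value for either, and for the same reason no replicate could be left out. The cause of the changes below was not tested beyond the construction of each alternative. Joining H3K4me3 peaks across gaps of at most 1000 bp made the start peaks 6027 bp (Pou5f1), 9701 bp (Sox2) and 4301 bp (Nanog) wide, and the shares of narrower coding starts became 96.6%, 99.5% and 89.7%. Ranked among all H3K4me3 peaks, the shares were 98.8%, 99.9% and 97.5%. With the wider 50% of ATAC-seq peaks, the counts within 150 kb were 46, 21 and 31 and the shares of genes below were 98.8%, 64.6% and 86.2%, so that Nanog no longer had the highest count. With 100 kb on either side the shares were 99.3%, 84.3% and 99.7%, with 50 kb 99.4%, 90.6% and 96.5%, and among all GENCODE genes 98.9%, 85.6% and 99.2%. With the peak midpoint required inside the window, 5 of 11 enhancer windows held an H3K4me3 peak in place of 8, since the midpoints of the peaks touching the proximal and distal enhancers of Pou5f1 and SRR2 of Sox2 lay outside. The wider 50% of ATAC-seq peaks left 9 of 11 windows, without SRR1 and SRR2. In all, 20 of 42 alternative values stayed within 1.5 times the reported count or within the 95% binomial (Wilson) interval of the reported share, among them every value from the start of the principal transcript and from the H3K4me3 list restricted to −log10 q values of 5 or more. The interval served only as a tolerance, since the shares are over all genes compared and not over a sample of them. Counts and shares were thus judged by unlike rules. Depth limits every count, since a shallower library gives fewer and narrower peaks, and it is not known here.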
